A study of Mus musculus with 8 samples.

Results

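The genes of 8 transcription factors of naive T cells were followed over 4 sorted groups of CD4 T cells: Tcf7, Lef1, Satb1, Bach2, Foxo1, Foxp1, Ets1 and Id3. All non-control probes of the array that the files name after one of these genes were taken, which gave 19 of 41174 probes and 8 of 27670 gene names. Tcf7, Satb1, Bach2 and Foxo1 had 2 probes each, Lef1 and Foxp1 had 3, Ets1 had 4 and Id3 had 1. All 19 probes passed the filter on dim probes and none was saturated on any array, while 17 were well above background on all 8 arrays.

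A naive CD4 T cell has left the thymus but not met its antigen, and it rests and recirculates through lymph nodes under the control of a small set of factors. Tcf7 and Lef1 encode related HMG-box proteins (TCF-1 and LEF-1) that bind the same DNA core, recruit beta-catenin or Groucho corepressors, and act in T cell development. Satb1 organises chromatin in thymocytes and T cells, Bach2 represses effector genes at AP-1 sites, Foxo1 drives homing and survival genes such as Ccr7, Klf2 and Il7r, Foxp1 keeps naive T cells quiescent, Ets1 belongs to the ETS family that acts at many T cell genes, and Id3 holds E proteins away from DNA.

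The sorted CD4 T cells fell into 4 labelled groups of 2 samples, with 1 array a sample: naive, CD44lo, CD44hi and regulatory T cells (Treg). CD44 is an adhesion receptor that rises on T cells after antigen. According to the labels, all groups came from the spleen and lymph nodes, pooled, of C57BL/6 males aged 15 weeks, with no treatment named other than the sort. The series title names Ox40-cre/ROSA-YFP, a combination in which Cre made from the Ox40 gene of activated and regulatory T cells turns on YFP for good, and the labels give neither the sort markers nor the YFP status of a group. Sample titles carry the prefix m1 or m2, and the labels do not say whether this stands for different animals. The p-values below therefore measure only how far 2 samples lay apart, and that distance may be technical.

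Of the 8 factors, 6 were lower in CD44hi than in naive cells, where 14.5% of all tested genes were called lower, and 5 were lower in Treg than in naive cells, where 10.3% were. None was called lower in CD44lo by limma, where 0.761% of all tested genes were. An unadjusted p under 0.05 was reached by 5 of the factors and by 3539 of the 17996 tested genes. Satb1, Bach2 and Lef1 had the deepest differences in CD44hi, between 6.71-fold and 9.10-fold, each with its lowest mean level there. For Lef1, CD44hi and Treg did not differ by the test. Tcf7 had another order: it was lowest in Treg, 3.12-fold under naive and 2.06-fold under CD44hi. Id3 and Ets1 did not pass the test in any of the 6 comparisons.

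**Figure D1:**
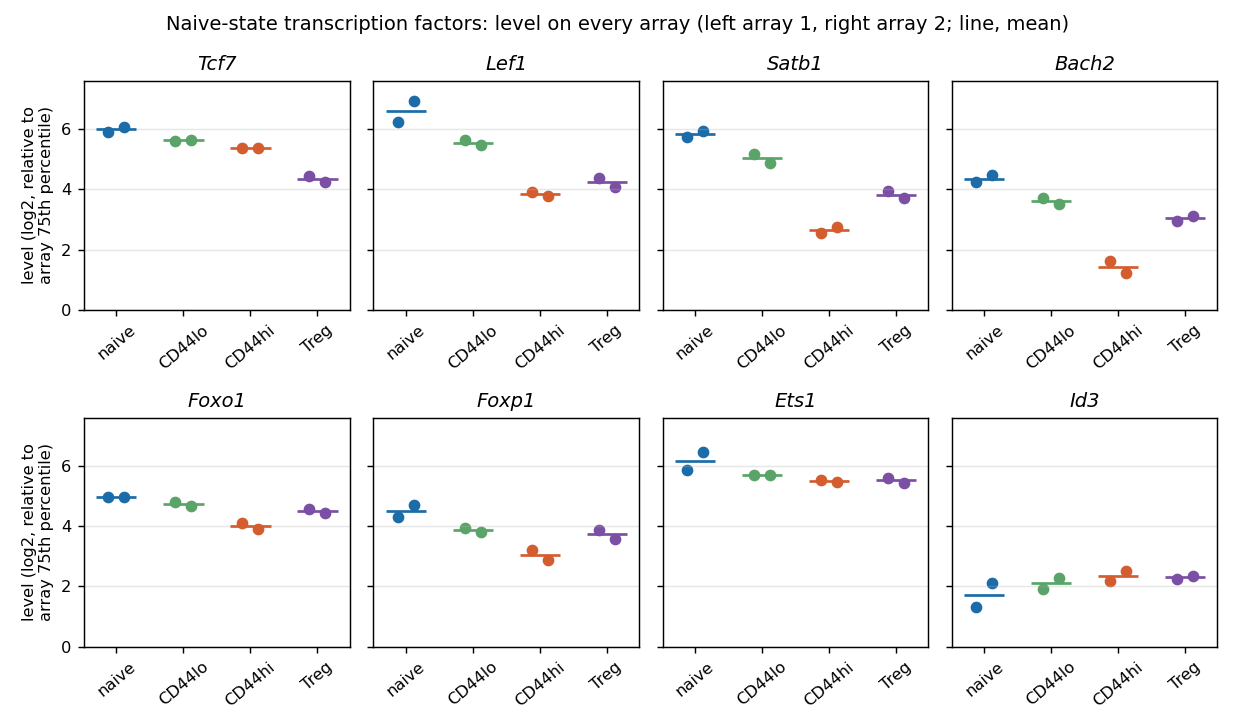
Level of each factor on every array, as log2 processed signal relative to the array's 75th percentile, for the brightest probe of each gene; the line is the mean of the 2 arrays of a group. Satb1 and Bach2 were lowest in CD44hi (means 2.65 and 1.42), Tcf7 was lowest in Treg (4.35), and the naive arrays lay apart from each other for Id3 (1.30 and 2.12) and Lef1 (6.23 and 6.95).

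Levels are given as log2 of the processed signal minus the 75th percentile of that array, and they can be set against each other only within a probe. Differences come from limma fitted on 17996 genes over all 8 arrays, with Benjamini-Hochberg adjusted p and a call at an adjusted p under 0.05, and values after ± are standard errors. With 2 samples against 2, an exact permutation test of a single gene cannot go below p = 0.333, so the calls rest on the spread shared across genes. The CD44lo, CD44hi and Treg comparisons with naive cells share the 2 naive arrays. In bulk RNA of sorted cells, fewer cells that express a gene and less RNA per cell cannot be told apart.

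One array stood apart before any comparison. The 3′ and 5′ probes were set against each other in 3061 transcripts with a pair of probes at least 300 bases apart on the genome. The median level of the 3′ probe over the 5′ probe was 1.85 (log2) on naive array 2, while the remaining 7 arrays ranged from 1.35 to 1.42. The 75th percentile of the signal was 639 on that array and 991 on naive array 1, and it ranged from 1045 to 1337 over the remaining 6 arrays. The members' differences of CD44hi and Treg from naive cells are therefore also given without naive array 2, where naive array 1 is assumed to vary like the other groups. In CD44lo no member was called in that refit, where 0.411% of all genes were lower and 3.93% higher. The part of this array's 3′ balance in the results was not tested beyond these refits.

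The labels were checked on marker genes. All 12 CD4 T cell markers were well above background on every array, with a summed level (signal relative to the 75th percentile) from 360 to 619. Foxp3, the defining factor of Treg, stood at -5.41 and -4.68 (log2 level) in naive, 0.35 and 0.84 in CD44lo, -0.24 and -0.10 in CD44hi, and 2.77 and 2.68 in Treg. Treg arrays were the highest, and both CD44lo and CD44hi carried far more Foxp3 signal than naive cells. The summed level of 18 B cell markers was 6.28 to 12.2 in naive, 7.27 to 10.8 in CD44lo, 13.2 to 17.7 in CD44hi and 8.98 to 9.24 in Treg, with 12 to 15 of them above background on an array. The summed level of 12 markers of CD8 T cells and NK cells was 18.0 and 22.9 in naive and 7.15 to 11.0 elsewhere. Cd8b1 read 3.12 and 3.74 (log2 level) in naive and 1.75 to 2.49 elsewhere, and Cd8a between -8.00 and -4.37 on all arrays. Of the 9 tested genes of this list, 3 were called lower and 5 higher in CD44hi than in naive cells. The shares of all genes were 14.5% and 13.2%. Among the 5 were Klrb1c, at -4.90 and -4.52 in naive and -0.39 on both CD44hi arrays, and Klrk1, above background on only 2 of 8 arrays. Plasma cell markers summed to 1.26 to 1.38 in naive, 1.74 to 1.77 in CD44lo, 5.24 to 11.0 in CD44hi and 5.04 to 9.09 in Treg, and myeloid markers to 1.08 to 2.58 over all arrays. Erythroid and platelet markers split by title number, at 0.45 to 0.59 on the arrays numbered 1 and 0.21 to 0.27 on those numbered 2. Within these sums, some genes of antigen-presenting cells were highest on the 2 naive arrays. The class II gene H2-Ab1 read -0.03 and 1.18 (log2 level) in naive, -3.13 and -2.82 in CD44lo, -1.03 and -1.14 in CD44hi, and -1.36 and -1.46 in Treg, and H2-Aa, H2-Eb1, Itgax and Pirb were likewise highest in naive. Cd74, on the same list as the class II genes, was highest in Treg, at 1.25 and 1.40 against -0.12 and 0.71 in naive. Lyz1, Lyz2, Cybb, Blnk and Ms4a1 were lower in naive than in CD44hi and Treg. The part of such cells, and of Foxp3-bearing cells in CD44lo and CD44hi, in the levels below was not tested.

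Tcf7, measured by the probe nearer its 3′ end, read 5.90 and 6.09 (log2 level) in naive, 5.61 and 5.65 in CD44lo, 5.38 and 5.39 in CD44hi, and 4.44 and 4.26 in Treg. Both Treg arrays were the lowest of the 8, and no 2 groups overlapped. Against naive cells the log2 difference was -1.64 ± 0.15 in Treg (limma, adjusted p = 0.000542), with -1.65 on slide 1 and -1.64 on slide 2, the 2 slides each holding 1 array of every group. In CD44hi it was -0.60 ± 0.15 (adjusted p = 0.0264) and in CD44lo -0.36 ± 0.15 (adjusted p = 0.251). Treg also lay below CD44lo by a log2 difference of -1.28 ± 0.15 (adjusted p = 0.00733) and below CD44hi by -1.04 ± 0.15 (adjusted p = 0.00867), while CD44hi and CD44lo did not differ by the test (-0.24 ± 0.15, adjusted p = 0.407).

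The second Tcf7 probe lies 717 bases upstream of the first, at chr11:52210086-52210145 against chr11:52209369-52209428 (build mm7, as the array files give it, minus strand). It read 4.85 and 3.96 in naive, 4.61 and 4.53 in CD44lo, 4.35 and 4.41 in CD44hi, and 3.00 and 3.12 in Treg. Its Treg difference from naive was called as well (-1.35, adjusted p = 0.0196 in a limma fit of single probes), but its CD44hi difference was -0.02 (adjusted p = 0.957). The naive arrays carry that disagreement, since naive array 2 was 0.89 lower than naive array 1 on the upstream probe and 0.19 higher on the other. Without naive array 2 the CD44hi difference was -0.51 (adjusted p = 0.0386) on the first probe and -0.47 (adjusted p = 0.0398) on the second, and the Treg difference was -1.55 and -1.80. The CD44hi call for Tcf7 held in 5 of 10 alternative settings and in 2 of 8 fits that left out an array, and the Treg call against naive held in all of these. Against CD44lo the Treg call held in all 10 settings and was lost without CD44lo array 1, CD44lo array 2 or Treg array 2, and against CD44hi it was lost without any array of either group.

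Of the Tcf7 starts in RefSeq (assembly GRCm38.p6), the second is shown because 3 of the 5 motifs searched fall in it, those for forkhead factors, for ETS factors and for helix-loop-helix proteins, which are the families of Foxo1, Foxp1, Ets1 and the partners of Id3. The window is chr11:52282546-52282845 on the minus strand, from 250 bases before the start to 50 after, and capitals mark, in order, the ETS match (CCGGAAGT, here on the opposite strand) beginning 26 bases before the start, the forkhead match (GTAAACA) 1 base after it and the E-box (CAGNTG) 39 bases after it.
Tcf7 promoter, start 2: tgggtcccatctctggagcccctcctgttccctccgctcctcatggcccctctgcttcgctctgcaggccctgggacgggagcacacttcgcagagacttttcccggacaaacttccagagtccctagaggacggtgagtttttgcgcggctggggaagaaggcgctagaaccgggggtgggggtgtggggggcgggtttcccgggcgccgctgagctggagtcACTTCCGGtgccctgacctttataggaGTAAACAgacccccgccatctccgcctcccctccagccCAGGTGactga

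Lef1, the partner of Tcf7 in the same family, read 6.23 and 6.95 (log2 level) in naive, 5.63 and 5.46 in CD44lo, 3.91 and 3.79 in CD44hi, and 4.39 and 4.09 in Treg on its brightest and most 3′ probe (chr3:131060609-131060668, mm7). Naive arrays were the highest, CD44lo came next, and the CD44hi and Treg arrays lay below both without overlapping each other. Lef1 was 6.71-fold lower in CD44hi than in naive cells (log2 -2.75 ± 0.26, limma adjusted p = 0.000492) and 5.10-fold lower in Treg (log2 -2.35 ± 0.26, adjusted p = 0.00113). The slides gave -3.04 and -2.45 for CD44hi and -2.56 and -2.14 for Treg. Without naive array 2 these differences were -2.39 and -1.99, both still called.

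Lef1 was also lower in CD44hi than in CD44lo (log2 -1.70 ± 0.26, limma adjusted p = 0.0102) and lower in Treg than in CD44lo (-1.30 ± 0.26, adjusted p = 0.0358). The first call was lost without CD44lo array 1 or CD44hi array 2, and the second held in 9 of 10 settings but only in the fits without a naive array, 2 of 8. Treg and CD44hi did not differ by the test (0.40 ± 0.26, adjusted p = 0.46, 95% interval -0.22 to 1.01). The CD44lo difference from naive was -1.05 ± 0.26 (adjusted p = 0.0778), and it was called with normexp background correction, on the authors' value table, with an intensity trend and without naive array 1.

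A second Lef1 probe, which spans an intron (chr3:131041424-131059585), gave like values, at -2.74 for CD44hi (adjusted p = 0.000577) and -2.27 for Treg (adjusted p = 0.00159). The third and most upstream probe was dim. It was above background on 3 of 8 arrays, both of CD44lo and 1 of naive, and on no CD44hi or Treg array, so it is given no fold. It read -4.57 and -5.53 in naive, -4.59 and -5.31 in CD44lo, -7.47 and -7.65 in CD44hi, and -6.88 and -7.98 in Treg.

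Lef1 has 4 starts in the RefSeq table, and the most downstream of them is shown because it alone holds the core that TCF-1 and LEF-1 bind (CTTTGA, or TCAAAG on the opposite strand), 2 times, 180 and 120 bases before the start. The window is chr3:131156044-131156343 (GRCm38.p6, plus strand), and capitals mark the core.
Lef1 promoter, start 4: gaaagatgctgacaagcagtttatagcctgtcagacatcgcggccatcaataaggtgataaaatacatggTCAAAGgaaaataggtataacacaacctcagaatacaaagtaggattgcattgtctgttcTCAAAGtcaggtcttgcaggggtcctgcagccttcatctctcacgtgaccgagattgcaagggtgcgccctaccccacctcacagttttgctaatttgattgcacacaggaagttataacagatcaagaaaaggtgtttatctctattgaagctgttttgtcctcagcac

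Satb1 had the deepest difference of the 8 factors. It read 5.73 and 5.95 (log2 level) in naive, 5.19 and 4.87 in CD44lo, 2.56 and 2.74 in CD44hi, and 3.94 and 3.71 in Treg (chr17:49889761-49889820, mm7). The 4 groups did not overlap and fell in the order naive, CD44lo, Treg, CD44hi. In CD44hi it was 9.10-fold lower than in naive cells (log2 -3.19 ± 0.19, limma adjusted p = 8.8e-05) and in Treg 4.04-fold lower (log2 -2.01 ± 0.19, adjusted p = 0.000579). The slides gave -3.39 and -2.99 for CD44hi and -2.01 and -2.02 for Treg, and without naive array 2 the differences were -3.08 and -1.91.

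All steps below CD44lo passed the test for Satb1. CD44hi lay -2.38 ± 0.19 from CD44lo (limma adjusted p = 0.00172), Treg -1.20 ± 0.19 from CD44lo (adjusted p = 0.0162), and Treg 1.17 ± 0.19 above CD44hi (adjusted p = 0.0128). The step from naive to CD44lo was -0.81 ± 0.19 (adjusted p = 0.0635), and its call came with an intensity trend and without naive array 1. The CD44hi calls against naive and CD44lo, and the Treg call against naive, held in all 10 settings and all 8 fits without an array. The Treg call against CD44hi held in all 10 settings but in none of the 4 fits that left out a Treg or CD44hi array, and the Treg call against CD44lo was lost without any CD44lo or Treg array and with no filter on dim probes. The other Satb1 probe, 67327 bases upstream on the genome, gave -3.14 for CD44hi (adjusted p = 0.000318) and -1.84 for Treg (adjusted p = 0.00347) against naive.

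Bach2 read 4.25 and 4.47 (log2 level) in naive, 3.73 and 3.53 in CD44lo, 1.62 and 1.22 in CD44hi, and 2.96 and 3.12 in Treg (chr4:32859496-32859555, mm7). As for Satb1, the CD44hi arrays were far below all others and the Treg arrays lay between them and CD44lo. Against naive cells Bach2 was 7.66-fold lower in CD44hi (log2 -2.94 ± 0.19, limma adjusted p = 0.000134, -2.85 and -3.03 on the 2 slides). In Treg it was 2.49-fold lower (log2 -1.32 ± 0.19, adjusted p = 0.00424, -1.51 and -1.13 on the slides). These were -2.83 and -1.21 without naive array 2, both called. Bach2 was 3.08-fold higher in Treg than in CD44hi (log2 1.62 ± 0.19, adjusted p = 0.00445), and lower in CD44hi than in CD44lo (-2.21 ± 0.19, adjusted p = 0.00239). These CD44hi calls held in every alternative and every fit without an array. The Treg call against naive was lost where the probes of a gene were averaged, and the differences of CD44lo from naive (-0.73 ± 0.19, adjusted p = 0.102) and of Treg from CD44lo (-0.59 ± 0.19, adjusted p = 0.167) did not pass the test.

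The second Bach2 probe lies 124723 bases upstream on the genome and was dim, above background on 6 of 8 arrays and on neither CD44hi array. In the limma fit of single probes it was at least 3.06-fold higher in naive (adjusted p = 0.00788) and at least 2.04-fold higher in Treg (adjusted p = 0.0456) than in CD44hi. Such a bound sets the bright group's mean against, on each dim array, the higher of the lowest signal called well above background and the probe's own. The Treg difference of the second Bach2 probe from naive was -0.58 (adjusted p = 0.412). The single Bach2 start in the table is shown because it holds 1 copy of the TCF and LEF core, 93 bases before the start. The window is chr4:32417185-32417484 (GRCm38.p6, plus strand), and capitals mark the core.
Bach2 promoter: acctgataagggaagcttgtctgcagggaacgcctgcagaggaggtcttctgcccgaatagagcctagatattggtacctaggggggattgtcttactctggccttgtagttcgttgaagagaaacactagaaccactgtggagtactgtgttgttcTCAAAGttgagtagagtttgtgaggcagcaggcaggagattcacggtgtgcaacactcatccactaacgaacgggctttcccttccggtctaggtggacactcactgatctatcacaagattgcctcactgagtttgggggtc

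The motifs were searched on both strands of 17 promoter windows of 300 bases, which the RefSeq table holds for 7 of the 8 genes. The TCF and LEF core was in 3 of the 17 windows, one each of Lef1, Bach2 and Foxp1, and in 16.0% of all 32851 windows of that length. The forkhead motif and the ETS motif were each in 1 member window, against 3.65% and 3.89% of all windows. E-boxes were in 9 of the 17, in windows of Tcf7, Lef1, Satb1 and Foxp1, against 51.4% of all windows. The BACH and AP-1 core (TGAGTCA) was in none of the 17 and in 5.20% of all windows. No 2 matches overlapped in the windows shown. A match describes these letters and is not a binding site, and these arrays measured no binding.

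Foxo1 read 4.98 and 4.98 (log2 level) in naive, 4.79 and 4.67 in CD44lo, 4.10 and 3.90 in CD44hi, and 4.58 and 4.42 in Treg. CD44hi arrays were again the lowest, over a narrower range than Satb1 or Bach2. Foxo1 was 1.97-fold lower in CD44hi than in naive cells (log2 -0.97 ± 0.15, limma adjusted p = 0.00449, -0.88 and -1.07 on the slides), a call that held in every alternative and without each array. It was lower in CD44hi than in CD44lo by -0.73 ± 0.15 (adjusted p = 0.0321), and that call held in 7 of 10 settings and only in the fits without a naive array, 2 of 8. The Treg difference from naive was -0.48 ± 0.15 (adjusted p = 0.067). The differences without naive array 2 were -0.97 in CD44hi (adjusted p = 0.012) and -0.48 in Treg (adjusted p = 0.0852). The second Foxo1 probe gave -0.94 for CD44hi (adjusted p = 0.0103) and -0.58 for Treg (adjusted p = 0.0666) against naive.

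Foxp1, a forkhead repressor, read 4.30 and 4.72 (log2 level) in naive, 3.94 and 3.82 in CD44lo, 3.22 and 2.88 in CD44hi, and 3.87 and 3.58 in Treg. CD44hi lay below all other arrays, and the CD44lo and Treg arrays overlapped. The gene was 2.74-fold lower in CD44hi than in naive cells (log2 -1.46 ± 0.22, limma adjusted p = 0.00368, -1.49 and -1.42 on the slides), in every alternative and without each array. Its other 2 probes were called there too, at -1.52 (adjusted p = 0.00916) and -1.06 (adjusted p = 0.0232). In Treg the difference from naive was -0.79 ± 0.22 (adjusted p = 0.0441), a call that held in 4 of 10 settings and in 1 of 8 fits without an array, that without naive array 1. Refitted without naive array 2 it was -0.58 (adjusted p = 0.12), and with the title number as a replicate block its adjusted p = 0.054.

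Ets1 was the factor whose probes disagreed most. On its brightest and most 3′ probe it read 5.86 and 6.46 (log2 level) in naive, 5.69 and 5.69 in CD44lo, 5.54 and 5.47 in CD44hi, and 5.59 and 5.45 in Treg. Naive arrays were the highest, and the other 6 lay within a narrow range. Against naive cells the difference was -0.66 ± 0.21 in CD44hi (limma adjusted p = 0.0632, 95% interval -1.17 to -0.14) and -0.64 ± 0.21 in Treg (adjusted p = 0.0779, interval -1.15 to -0.13). With all arrays kept, the CD44hi difference was called in 4 of 10 alternative settings and the Treg difference in 2 of 10. Leaving out a naive array moved the difference in CD44hi and Treg as follows. Without naive array 2 it was -0.36 (adjusted p = 0.0747) and -0.34 (adjusted p = 0.0991), and without naive array 1 it was -0.95 (adjusted p = 0.00385) and -0.94 (adjusted p = 0.00484). Between Treg and CD44hi the difference was 0.02 ± 0.21 (adjusted p = 0.981), with a 95% interval from -0.50 to 0.53.

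Both upstream Ets1 probes, which overlap each other 3044 and 3034 bases from the most 3′ probe, went the other way against naive cells. The first of them read 2.21 and 0.84 (log2 level) in naive, 2.27 and 2.21 in CD44lo, 1.78 and 1.62 in CD44hi, and 2.17 and 1.64 in Treg, so that naive array 1 lay among the other groups and naive array 2 below all. Its CD44lo difference from naive was 0.72 (limma, adjusted p = 0.384), made of 1.37 on slide 1, which holds naive array 2, and 0.06 on slide 2. From 5′ to 3′, the 4 probes put naive array 2 at -1.37, -1.13, 0.51 and 0.60 against naive array 1. The arrays of CD44lo differed by at most 0.07 on any of them.

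**Figure D2:**
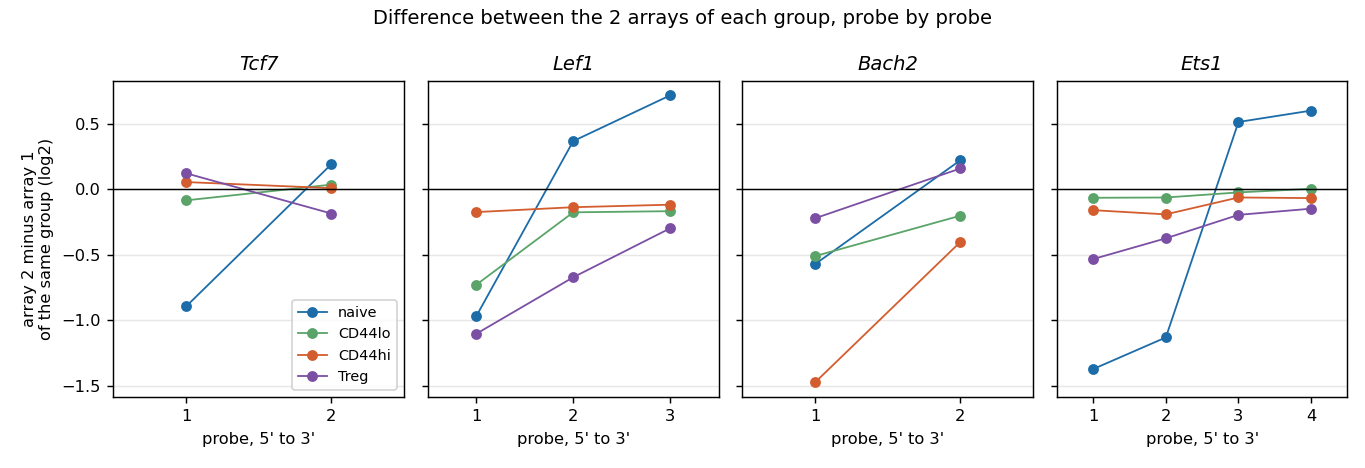
Array 2 minus array 1 of the same group (log2), for the probes of 4 genes in order from 5′ to 3′, with 1 line a group. The naive line climbs from -0.89 to 0.19 for Tcf7, from -0.97 to 0.72 for Lef1, from -0.57 to 0.22 for Bach2 and from -1.37 to 0.60 for Ets1.

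A like slope from upstream to downstream probes was seen in naive array 2 over Tcf7, Lef1 and Bach2, as the plot of array differences shows. Other groups sloped as well on the dim upstream probes of Lef1 and Bach2, where CD44hi array 2 lay 1.47 below array 1 for Bach2. For Satb1 (0.07 and 0.22) the naive difference was small on both probes, and the Foxo1 probes had 0.00 and 0.35. Foxp1 had 0.10, 0.56 and 0.42.

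Id3 read 1.30 and 2.12 (log2 level) in naive, 1.91 and 2.28 in CD44lo, 2.18 and 2.52 in CD44hi, and 2.26 and 2.34 in Treg on its only probe (chr4:135522597-135522771, spanning an intron, mm7). Naive array 1 was the lowest of the 8, and naive array 2 lay within the CD44lo range. On the brightest probes it was the only factor with positive differences from naive cells, at 0.64 ± 0.29 in CD44hi (limma adjusted p = 0.15, 95% interval -0.06 to 1.35), 0.59 ± 0.29 in Treg (adjusted p = 0.187, interval -0.12 to 1.29) and 0.39 ± 0.29 in CD44lo (adjusted p = 0.444). Without naive array 2 the first 2 were 1.05 (adjusted p = 0.03) and 0.99 (adjusted p = 0.0427) and were called. Without naive array 1 they were 0.23 (adjusted p = 0.42) and 0.18 (adjusted p = 0.525). Its calls thus changed with the naive array used. With all 8 arrays, Id3 was also called higher in CD44hi on the authors' value table (0.77, limma adjusted p = 0.044). Among CD44lo, CD44hi and Treg its differences were between -0.05 and 0.25.

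In CD44hi against naive cells 6 of 8 members were called lower and 0 higher, where 14.5% of the 17996 genes were called lower and 13.2% higher. Treg against naive cells had 5 of 8 lower and 0 higher, with 10.3% of all genes lower and 11.6% higher. CD44lo against naive cells had 0 of 8 in either direction, with 0.761% lower and 4.53% higher over all genes and 3539 genes at an unadjusted p under 0.05, among them 5 members, Tcf7, Lef1, Satb1, Bach2 and Foxp1. Without naive array 1, 6 members were called lower in CD44lo, namely Tcf7, Lef1, Satb1, Bach2, Foxp1 and Ets1, and without naive array 2 none was. Leaving out naive array 1 also raised the share of all genes called in CD44lo to 26.7% lower and 13.3% higher.

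Between the other groups, CD44hi against CD44lo had 4 members lower (Lef1, Satb1, Bach2 and Foxo1) and 0 higher, where 3.31% of genes were lower and 6.06% higher. Treg against CD44lo had 3 members lower (Tcf7, Lef1 and Satb1) and 0 higher, with 1.87% of genes lower and 3.7% higher, and none was called without CD44lo array 1, CD44lo array 2 or Treg array 2 and only 1 without Treg array 1. Treg against CD44hi had 1 member lower (Tcf7) and 2 higher (Satb1 and Bach2), with 4.04% of genes lower and 4.15% higher, and 1, Bach2, was left without any single array of those groups. All 21 member calls had the same sign on both slides, which is no separate check, since the slides hold the same arrays that gave the calls. Over single probes, 42 of 114 tests of the 19 member probes were called, against 11.5% of all probe tests. Probes of the same gene on the same arrays are not separate evidence. The called tests include those of the dim upstream Lef1 probe, which passed the filter only through CD44lo. The median log2 difference of the members from naive cells was -0.55 in CD44lo, -1.22 in CD44hi and -1.05 in Treg, where the medians of all tested genes were -0.13, -0.15 and -0.20. The median of all genes in Treg moved to -0.28 with normexp background correction and to -0.10 on the authors' value table, and the members' differences are read relative to such shifts.

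**Figure D3:**
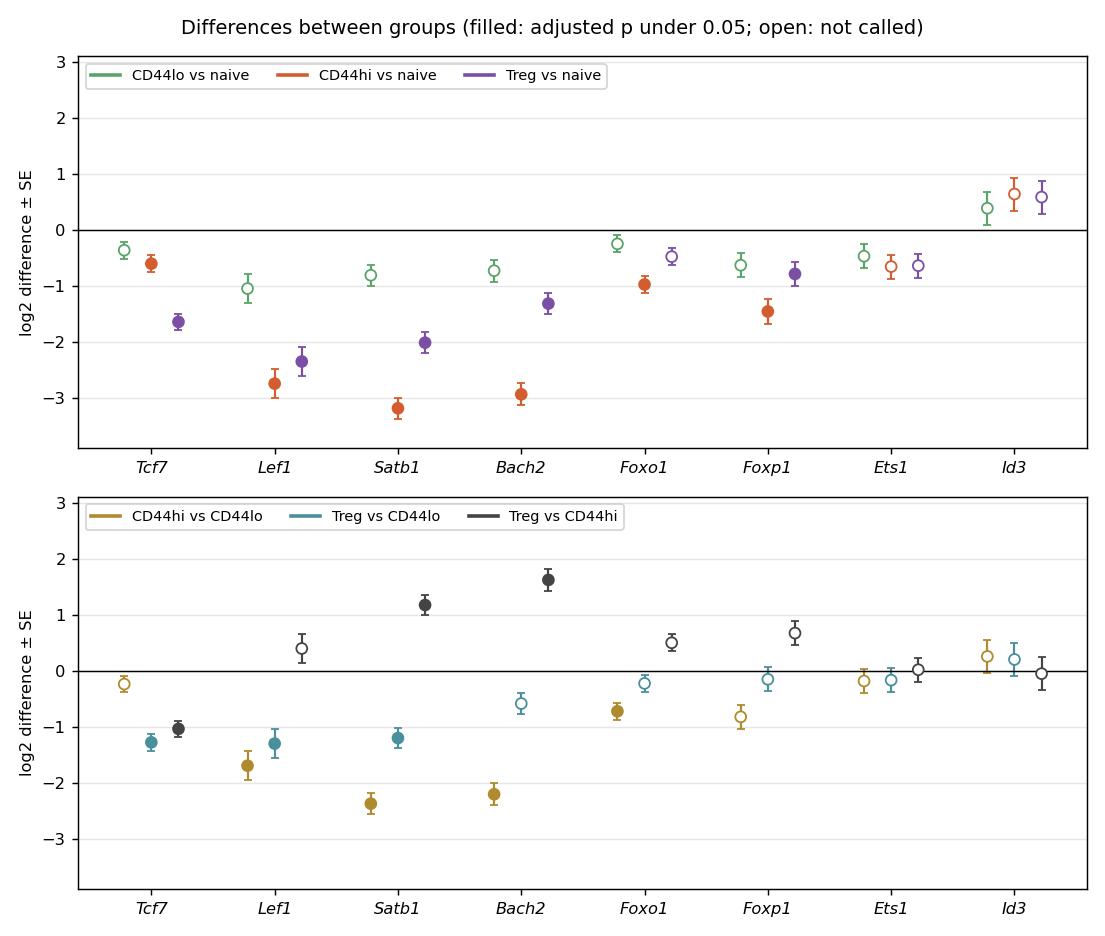
Log2 difference ± SE of each factor in the 3 comparisons with naive cells (upper) and the 3 among the other groups (lower); filled points passed an adjusted p under 0.05. Tcf7 is deepest in Treg (-1.64), Satb1 and Bach2 in CD44hi (-3.19 and -2.94), and in the lower panel Treg lies above CD44hi for Satb1 (1.17) and Bach2 (1.62) but below it for Tcf7 (-1.04).

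Across the 8 arrays, the 28 pairs of members had Pearson correlations from -0.68 to 0.99 with a median of 0.71, as a description over arrays that fall into 4 groups. Bach2 and Foxo1 were the most alike (0.99), and Satb1 and Bach2 had 0.97. Tcf7 had 0.71 with Lef1 and 0.35 with Bach2. Id3 was negative with all 7 others, from -0.68 (Foxo1) to -0.35 (Ets1).

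Among 3759 other genes whose group means spanned at least 1 on the log2 scale, those with the pattern most like a member over the 8 arrays were listed by Pearson correlation. Orai2, a store-operated calcium channel gene, was first for Tcf7, followed by P4ha2 and Hs3st3b1. Npc2 was first for Lef1, Dennd2c for Satb1 and St8sia6 for Bach2. Oasl1 was first for Foxo1, Brwd1 for Foxp1 and Cbx8 for Ets1. Gadd45b, a stress-induced gene, was first for Id3 with 0.97, and the other 7 first places had correlations of 0.99 or 1.00. With 8 arrays and so many candidates, such values describe these arrays only.

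Relatives of the members were read next, and 15 of 20 listed genes of the same families were tested. In CD44hi against naive cells 7 were lower and 2 higher, beside 14.5% and 13.2% of all genes, in Treg 3 were lower and 2 higher, beside 10.3% and 11.6%, and in CD44lo 1 (Foxp3) was higher. The counts were the same without naive array 2. Tcf7l1, a TCF family member, read -1.41 and -0.73 (log2 level) in naive, -2.10 and -2.14 in CD44lo, -4.43 and -4.74 in CD44hi, and -0.83 and -1.22 in Treg. It was thus low in CD44hi and at the naive level or near it in Treg, with differences of -3.51 (limma adjusted p = 0.000217) and 0.05 (adjusted p = 0.903) from naive and 3.56 between Treg and CD44hi (adjusted p = 0.000928).

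Tcf7l2 was lower in CD44hi (log2 -1.43, limma adjusted p = 0.00633) and higher in Treg (1.29, adjusted p = 0.0115) than in naive cells while Tcf7 was lower there. Foxo3 fell by 1.22 in CD44hi against naive (adjusted p = 0.00922) and was higher in Treg than in CD44hi (1.08, adjusted p = 0.0344). Ets2 fell by 1.49 in CD44hi (adjusted p = 0.00089) and by 0.80 in Treg (adjusted p = 0.0141), and Elf1 by 0.62 (adjusted p = 0.0414) and 0.72 (adjusted p = 0.0306). The Elf1 call in CD44hi was lost without naive array 2 (-0.43, adjusted p = 0.0611). Fli1 and Gabpa, other ETS genes, were at -0.19 and -0.24 in CD44hi and did not pass the test there.

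Id2 and Id1, further inhibitors of E proteins, were called in CD44hi. Id2 read 2.47 and 2.62 (log2 level) in naive, 2.67 and 2.67 in CD44lo, 4.33 and 4.36 in CD44hi, and 2.12 and 2.07 in Treg. CD44hi alone was high, by 1.80 over naive (limma adjusted p = 0.000224), and Treg lay -2.25 from CD44hi (adjusted p = 0.000517). Id1 fell by 1.49 in CD44hi (adjusted p = 0.00237). The E protein genes Tcf3, Tcf4 and Tcf12 were not called in CD44lo, CD44hi or Treg against naive, with differences of -0.11, -0.01 and -0.47 in CD44hi. Of 7 tested E protein and further helix-loop-helix genes, 4 were higher in CD44hi, 2 in Treg and 2 in CD44lo than in naive cells and none lower. The shares of all genes called higher were 13.2%, 11.6% and 4.53%. Among the called were Bhlhe40 (5.17 in CD44hi, limma adjusted p = 0.000343) and Lyl1 (2.80 in Treg, adjusted p = 0.00135). Hhex and Tal1, also among the 4, were above background on only 3 of 8 arrays and brightest in CD44hi. For such genes the filter itself favours a higher call in CD44hi.

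Partners of Tcf7 and Lef1 were tested as a list of 16 beta-catenin and Groucho genes. In CD44hi 5 were lower and 1 higher than in naive cells, beside 14.5% and 13.2% of all genes, in Treg 3 lower and 1 higher, beside 10.3% and 11.6%, and in CD44lo 1 lower. Without naive array 2 the counts were 7 lower and 1 higher in CD44hi and 6 lower and 0 higher in Treg, where 13.7% and 14.5%, and 8.65% and 11.8%, of all genes were called. Tle1, a Groucho corepressor, read 0.90 and 0.83 (log2 level) in naive, 0.09 and -0.04 in CD44lo, -1.85 and -1.71 in CD44hi, and 0.01 and 0.11 in Treg. Its difference from naive was -2.65 in CD44hi (limma adjusted p = 6.8e-05), -0.81 in Treg (adjusted p = 0.00943) and -0.84 in CD44lo (adjusted p = 0.0204). Tle2 fell by 1.93 in CD44hi (adjusted p = 0.00266) and Tle4 by 1.15 in Treg (adjusted p = 0.00161), while Tle3 did not pass the test. Axin2, a target of beta-catenin signalling and a part of the complex that destroys beta-catenin, was higher in CD44hi (1.01, adjusted p = 0.00352) and Ctnnb1, beta-catenin itself, was lower there (-0.61, adjusted p = 0.0303).

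Genes linked to Foxo1 in homing and survival numbered 14. In CD44hi 6 were lower and 2 higher than in naive cells, in Treg 5 lower and 1 higher, and in CD44lo 1 lower and 1 higher (Ctla4), beside the same shares of all genes. In CD44hi 5 were lower and 3 higher without naive array 2, and the other counts were the same. Ccr7, which guides cells into lymph nodes, fell by 2.05 in CD44hi (limma adjusted p = 0.000774) and by 1.40 in Treg (adjusted p = 0.00472). Sesn1 fell by 1.57 (adjusted p = 0.00417) and Bcl2l11 by 1.24 (adjusted p = 0.00313) in CD44hi. In Treg, where Foxo1 itself was not called, Il7r fell by 1.52 (adjusted p = 0.00464), S1pr1 by 1.23 (adjusted p = 0.00433) and Klf2 by 1.11 (adjusted p = 0.0127). Ctla4, an inhibitory receptor, was higher by 4.50 in CD44hi (adjusted p = 5.09e-05) and 6.05 in Treg (adjusted p = 2.54e-05).

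Most factors of effector cells were higher than in naive cells, the direction opposite to that of most members. Of 14 tested, 13 were higher in CD44hi than in naive cells, 9 in CD44lo and 9 in Treg, and 2, Eomes and Runx3, were lower in Treg, of which Eomes was not called without naive array 2 (-0.67, adjusted p = 0.0732). The shares of all genes called higher were 13.2%, 4.53% and 11.6%. Tbx21, the type 1 helper factor T-bet, read -2.92 and -2.02 (log2 level) in naive, 1.30 and 2.11 in CD44lo, 4.32 and 4.10 in CD44hi, and 1.14 and 1.56 in Treg. Maf was higher by 4.91 in CD44hi (limma adjusted p = 6.45e-05) and Prdm1, the gene of Blimp-1, by 1.60 (adjusted p = 0.000542) and, in Treg, by 1.92 (adjusted p = 0.000314). Zeb2 was not well above background in naive cells and was at least 7.27-fold higher in CD44hi (adjusted p = 0.000156) and at least 2.14-fold higher in Treg (adjusted p = 0.00136). In CD44lo, where no member was called against naive, Bhlhe40 was higher by 3.56 (adjusted p = 0.00492) and Irf4 by 1.89 (adjusted p = 0.00111).

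**Figure D4:**
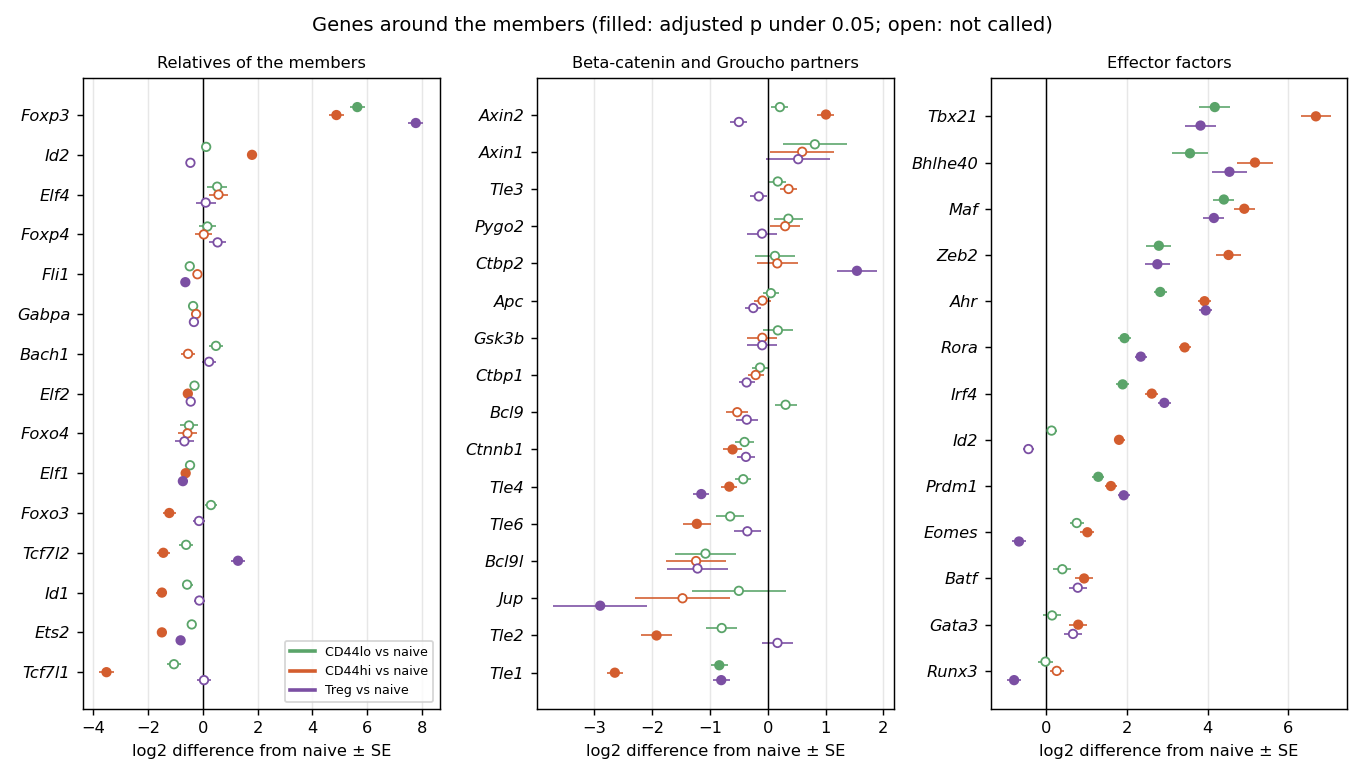
Log2 difference from naive cells ± SE in CD44lo, CD44hi and Treg for the tested relatives of the members, the beta-catenin and Groucho partners and 13 of the 14 effector factors; filled points passed an adjusted p under 0.05. Tcf7l1 and Tcf7l2 lie low in CD44hi (-3.51 and -1.43) and not in Treg (0.05 and 1.29), and Tbx21 reaches 6.68 in CD44hi; for genes not above background in naive cells, such as Zeb2, the plotted difference is no bound.

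Of 17 other factors of the T lineage, 3 were lower and 2 higher in CD44hi than in naive cells, near the 14.5% and 13.2% of all genes, the same counts held in Treg, and CD44lo had 1 higher (Gfi1). Bcl11b, Runx1, Zbtb7b, which directs the CD4 lineage, and Myb were called in neither group, with differences between -0.42 and -0.02 in CD44hi. Ikzf1 fell by 0.94 in CD44hi (limma adjusted p = 0.0256) and by 1.44 in Treg (adjusted p = 0.00598), the first of which was not called without naive array 2 (-0.96, adjusted p = 0.0697), and Gfi1 was higher by 0.97 (adjusted p = 0.00709) and 1.64 (adjusted p = 0.000896). A further list held 25 genes of naive and quiescent T cells outside the factors. Against naive cells 17 of them were lower in CD44hi, 16 in Treg and 4 in CD44lo, and none was higher. The shares of all genes called lower were 14.5%, 10.3% and 0.761%. This list was chosen with earlier results of these data known, so its counts are no separate support. Several genes are in more than 1 of these lists, Id2, Bhlhe40 and Ccr7 among them. The median log2 difference in CD44hi against naive was -0.54 for the relatives, -0.37 for the partners, -0.57 for the Foxo1-linked genes, 3.02 for the effector factors and -1.68 for the naive and quiescence genes, beside -0.15 for all genes.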

How the data were processed

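Gene expression was measured on 8 single-colour Agilent mouse arrays (4 groups, 2 arrays each). The spot signals are an intensity, which the authors read with Feature Extraction (Agilent, version 9.5.1.1) according to the deposited file headers, with background subtracted and no normalization between arrays. Flags for background, saturation, outliers and controls are deposited per spot (unit other). The authors' value table is deposited on a log2 scale with a median near 6.87 on every array, and limma is the tool named in the submitters' processing notes. Whether it was background-corrected is not given in the sources used here, and it served as an alternative.

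Outlier spots were left out unless a probe had no others, and spots were averaged per probe. Levels were log2 processed signal minus the 75th percentile of all non-control probes on that array. Probes were named by accession, then by current and older symbols (RefSeq GRCm38.p6 table), and each gene was read by its brightest probe. Genes well above background on both arrays of a group were tested (17996 genes, 27162 probes) with limma 3.58.1 in R 4.3.3, over 8 arrays and 4 group means, in 6 comparisons at a Benjamini-Hochberg adjusted p under 0.05. Tests were 2-sided. The number of arrays limits the precision. The code was tested on simulated data.

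The members and gene lists were chosen with earlier results of these data known. Named genes were all members with every probe and, from each list, up to 4 called genes with the largest change plus genes named for their role. Some genes of the lists are not reported here by name. Genes listed but not tested included Erg, Foxo6, Foxp2, Id4, Aes, Nkd1, Pygo1, Bhlhe41, Nhlh1, Irs2 and Mazr. Promoter sequences are RefSeq's, probe coordinates are those of the array design (mm7), and no coordinates were converted. Alternatives were other background corrections, scalings, filters and probe rules, a replicate block, the slide as a term and leaving out each array.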

Additional observations from a re-analysis of the deposited data

How the results depend on the processing

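No member changed direction while called under any alternative. With quantile normalization the CD44lo differences from naive were -0.01 for Tcf7, -0.64 for Lef1, -0.46 for Satb1, -0.47 for Bach2 and -0.37 for Foxp1. Each was smaller than in the main fit, while that of Id3 was larger, at 0.54. On the authors' value table the CD44lo difference of Tcf7 was 0.025. For CD44lo against naive cells 0 members were called, against 1 with normexp background correction, 1 on the authors' value table and 3 with an intensity trend, and 0 to 6 when each array was left out. The fit with 6, that without naive array 1, called 4800 of all genes lower and 2391 higher. For CD44hi against naive cells the count was 6 (5 to 7 without an array) and for Treg against naive cells 5 (4 to 7, and 3 with the mean of a gene's probes). CD44hi against CD44lo had 4 (2 to 5 without an array, and 2 without CD44lo array 1 or CD44hi array 2). Treg against CD44lo had 3, 1 with no filter on dim probes and 0 to 3 without an array. Treg against CD44hi had 3, 5 on the authors' value table (Foxo1 and Foxp1 being added as higher) and 1 to 3 without an array. Of member probe tests 42 were called, 26 with no filter and 24 to 66 without an array. The cause of these changes was not tested, apart from the fewer arrays in fits without one.

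Same-numbered samples had correlated deviations from their group means of 0.0564 to 0.332 over all genes, and samples on the same slide of -0.259 to 0.332. The erythroid gene Hba-a1 read -1.65, -1.56, -1.61 and -1.58 (log2 level) on array 1 of naive, CD44lo, CD44hi and Treg. On array 2 of these groups it read -3.02, -3.58, -3.44 and -4.23. The platelet gene Ppbp was higher on array 2 in each group. The main fit used no pairing, and whether the numbers pair the samples was not tested beyond the block below. With a replicate block the counts were 0, 6, 4, 4, 3 and 3 in the order above, and 41 member probe tests were called. The block lost the Foxp1 call in Treg against naive cells (adjusted p = 0.054).

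These values rest on 2 arrays a group. The naive arrays differed in 3′ balance, markers of other cells were uneven between groups, and the upstream probes of Lef1 and Bach2 were dim.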
